A study of Mus musculus with 21 samples.

Results

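The genes described here are the 86 protein-coding genes of the mouse nuclear chromosomes whose symbols mark subunits of the oxidative phosphorylation complexes. They were taken by symbol alone from the 45706 gene identifiers of the count table, by a rule that uses no measured value. Earlier results of these data were known when the members were chosen. Complex I was represented by 36 genes (Ndufa, Ndufb, Ndufc, Ndufs and Ndufv), complex II by 4 (Sdha to Sdhd), complex III by 9 (Uqcr genes and Cyc1), complex IV by 20 (Cox4 to Cox8 genes, with Ndufa4 and Ndufa4l2) and complex V by 17 (Atp5 genes). Assembly factors named Ndufaf and pseudogenes were not taken. The symbol rule also admitted Cox7a2l, known as a supercomplex assembly factor, and Atp5s, counted here with complex V by its symbol.

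Oxidative phosphorylation takes place in the inner mitochondrial membrane. Complexes I to IV pass electrons from NADH and succinate to oxygen, all but complex II pump protons, and complex V, the ATP synthase, uses the proton gradient to make ATP. Most subunits are made from nuclear genes and imported, a few are made inside the mitochondrion from its own DNA, and in myeloid cells the balance between this pathway and glycolysis is known to shift on activation.

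RNA sequencing was performed on myeloid cells sorted from the cortex of male mice aged 17 to 24 weeks. Traumatic brain injury (TBI) was made by controlled cortical impact, and tissue was taken from a block 1 mm thick around the lesion. Each library pooled the tissue of 2 brains and held either 40000 microglia, sorted as CD45low CD11b+ cells, or 25000 infiltrating myeloid cells, sorted as CD45hi CD11b+ cells. The 21 libraries formed 7 groups of 3. Microglia came from wild-type (WT) sham mice, WT mice 1 and 7 days (1 d and 7 d) after TBI, and Fgg390-396A mice at the same 2 times. Infiltrating myeloid cells came from WT and Fgg390-396A mice at 1 d. Fgg390-396A mice carry a knock-in allele in every cell. Their fibrinogen lacks the gamma chain motif bound by the CD11b/CD18 integrin and still clots. No sham group of that genotype was analysed here, so against sham the effects of genotype and of injury cannot be told apart in Fgg390-396A cells.

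The libraries held 18896963 to 51875790 counts, of which 43.0% to 58.5% came from ribosomal RNA genes. That share was 43.4% to 47.8% in sham and 50.6% to 58.5% in WT microglia at 1 d. Summed microglial markers were at 11716 to 13165 CPM (counts scaled to a common library size) in sham, 3183 to 5077 in WT microglia at 1 d and 370 to 1070 in infiltrating cells. Within microglia these markers did not move alike. P2ry12 was at 3954 to 4021 CPM in sham and 169 to 659 CPM in WT microglia at 1 d. Olfml3 was at 241 to 368 CPM and 227 to 344 CPM. Monocyte and macrophage markers reached 189 CPM at most in the microglial libraries and 3280 to 4698 in the infiltrating ones, and neutrophil markers 872 at most and 2799 to 13271, and the CD45hi CD11b+ gate does not part neutrophils from monocytes. All levels are CPM scaled by the trimmed mean of M values (TMM), and the deposited counts were corrected for transcript length, so levels may be set beside each other across genes.

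The promoter sequences of 67 members were found in RefSeq (GRCm38.p6), as windows from 250 bases before to 50 after the annotated start. Letters of motifs known from promoters of nuclear genes for mitochondrial proteins were searched on both strands. The NRF1 motif, GCGC and TGCGC with any base between them, stood in 17 of 67 members (25.4%) and in 5.19% of 27025 genes. The 27025 were all genes with a window, whether or not they were expressed in these cells. Shares among expressed genes alone are not given. The ETS motif CCGGAAG stood in 16 members (23.9%) against 9.93%, and the YY1 motif AAGATGGCG in 7 (10.4%) against 1.64%. The Sp1 letters GGGCGG were found in 40.3% of members and 38.2% of genes, and the letters TATAAA in 10.4% and 15.7%. The GGGCGG search can share bases with neighbouring matches of the other motifs. Of 4 members the results turn on, the bases of the window before the start that lie in no annotated exon are given below 5′ to 3′ on the gene's own strand, with NRF1, ETS and YY1 matches in capitals, some of which read as the motif on the other strand. Uqcr11, with the smallest adjusted p in injured WT microglia, lies on the minus strand (chr10:80406831-80407071) and shows 1 ETS match. Cox6a1, the most abundant member, is on the minus strand (chr5:115348982-115349129). Its printed bases show 2 NRF1 matches, and 1 ETS match lies in the rest of its window. Sdha, which did not pass the test, is on the minus strand (chr13:74350281-74350308). Its printed bases show 1 of the 3 NRF1 matches of its window. Cox7a2l, which went the other way over time, is on the minus strand (chr17:83514334-83514583) and has none of the NRF1, ETS or YY1 letters. A match is a description of letters, and binding was not measured.
Uqcr11: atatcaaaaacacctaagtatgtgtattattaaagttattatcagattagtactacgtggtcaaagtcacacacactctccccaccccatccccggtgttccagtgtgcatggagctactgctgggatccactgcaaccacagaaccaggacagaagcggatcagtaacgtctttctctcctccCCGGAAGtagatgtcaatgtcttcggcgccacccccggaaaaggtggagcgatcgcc
Cox6a1: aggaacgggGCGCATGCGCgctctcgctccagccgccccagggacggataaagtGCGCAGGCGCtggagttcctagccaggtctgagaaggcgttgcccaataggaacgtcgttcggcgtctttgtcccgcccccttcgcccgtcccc
Sdha: ggaggggcgtgttGCGCAGGCGCagaat
Cox7a2l: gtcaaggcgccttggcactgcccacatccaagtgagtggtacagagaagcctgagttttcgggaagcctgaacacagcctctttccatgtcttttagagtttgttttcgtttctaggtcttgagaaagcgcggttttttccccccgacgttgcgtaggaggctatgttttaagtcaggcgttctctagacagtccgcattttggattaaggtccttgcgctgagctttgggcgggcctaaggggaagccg

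Of the 86 members, 84 had enough counts to be tested and 76 had a mean of at least 10 CPM over all libraries. No count of Cox7b2 or Cox8c was found in any library, where 3 counts corresponded to 0.0578 to 0.159 CPM. The most abundant were Cox6a1 (471 CPM), Atp5e (366 CPM), Atp5b (344 CPM), Cox7c (259 CPM) and Cox4i1 (257 CPM), all subunits of complexes IV and V. The rarest tested were Ndufa4l2 (0.027 CPM), Cox8b (0.0426 CPM), Cox4i2 (0.0921 CPM), Cox7a1 (1.74 CPM) and Cox6b2 (1.88 CPM), each the rarer partner of an abundant paralog. The median member stood at 54.4 CPM, and within a group the members' coefficient of variation had a median of 13.2% to 21.8%.

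Summed over the members, WT microglia at 1 d carried 2.67 times the level of sham microglia. The sham libraries summed to 3194, 3261 and 3000.4 CPM and those of WT microglia at 1 d to 6778, 9205 and 9305 CPM. WT microglia at 7 d summed to 5127, 4108 and 4433 CPM, 1.45 times sham. Neither injured group overlapped with sham, and the 7 d libraries lay below all 1 d libraries. Fgg390-396A microglia followed the same order, with 5545, 7725 and 8626 CPM at 1 d (2.32 times sham) and 3967, 3569 and 4210 CPM at 7 d (1.24 times sham). Infiltrating myeloid cells had the highest sums, 12117, 11758 and 10236 CPM in WT and 10097, 11146 and 9798 CPM in Fgg390-396A mice. In a bulk sample, fewer cells of a type and less RNA per cell cannot be told apart. With CPM from library totals in place of TMM, the sham mean was 4555 CPM and the 7 d means were 4485 CPM in WT and 4495 CPM in Fgg390-396A microglia, so both 7 d differences from sham turned round, while the 1 d means stayed higher at 7116 and 7676 CPM.

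**Figure D1:**
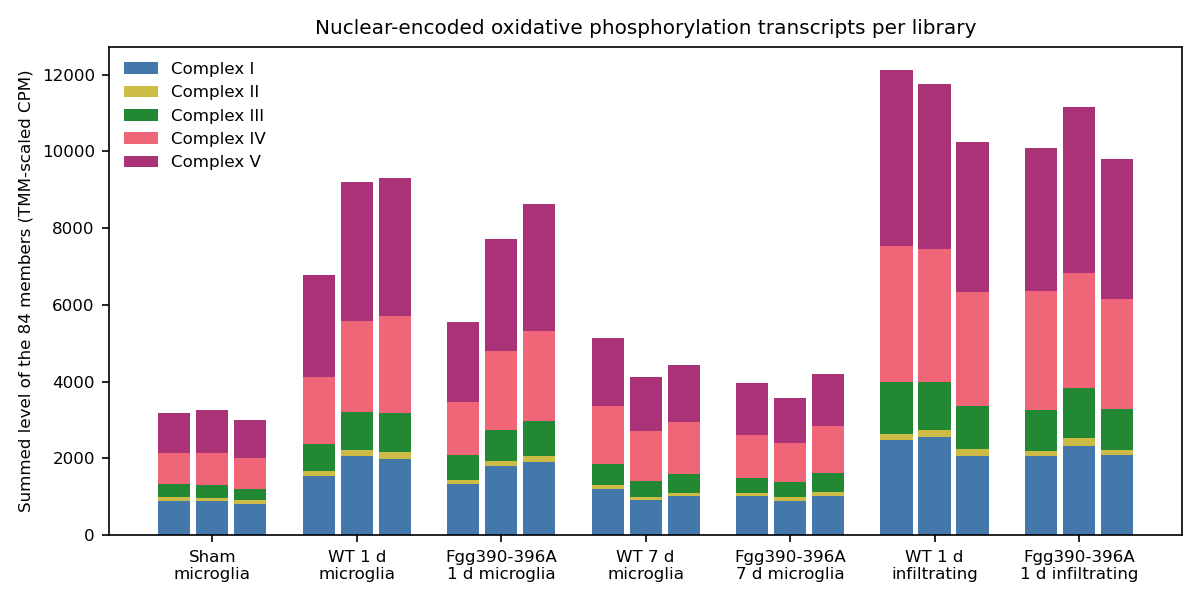
Summed TMM-scaled CPM of the 84 tested members in each of the 21 libraries, 3 bars per group in replicate order, with colors for complexes I to V. Sham bars reach 3000.4 to 3261 CPM, WT 1 d microglia 6778 to 9305 CPM and WT infiltrating cells 10236 to 12117 CPM. Under library totals the 7 d means of both genotypes lie below that of sham (4485 and 4495 against 4555 CPM).

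To ask what injury did to these transcripts in microglia, WT cells at 1 d were compared with sham. With edgeR's quasi-likelihood test, 70 of 84 members were higher and none was lower at an adjusted p under 0.05, while 10.7% of all genes tested were called higher and 5.97% lower. In 73 members every injured library lay above every sham library, as did 16.8% of all genes. Among the 5368 genes with a mean of at least 10 CPM, 32.5% were higher and 14.3% lower. The median log2 fold change was 1.27 over the members and 0.24 over those abundant genes. Under library totals these medians became 0.49 and -0.51, with 32 members higher and 1 lower (Cox7a2l). The members stood 1.00 to 1.03 above the median abundant gene under both scalings. Rescaling moves all genes of a comparison by nearly the same amount, so this gap cannot test the scaling. The ribosomal RNA share moved with injury, and with it as a covariate 33 members were higher and none lower. Monocyte and macrophage markers summed to 8.16 to 50.8 CPM in sham and 108 to 189 CPM in WT microglia at 1 d. The 10 markers of this sum did not move alike. Fn1 was at 0.637, 1.29 and 4.35 CPM in sham and 81.5, 142 and 70.3 CPM at 1 d. Arg1 went from 0.606, 0.569 and 1.13 to 42.3, 5.61 and 20.6 CPM. Ccr2 was at 4.05, 3.83 and 8.27 CPM in sham and 27.8, 1.99 and 5.27 CPM at 1 d. The part of monocytes and macrophages in the result was not tested.

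Complex I, the NADH dehydrogenase, had 29 of 36 members higher, with a median log2 fold change of 1.08. Ndufb8, an accessory subunit of its membrane arm, was at 39.6, 37.3 and 31.7 CPM in sham and 76.6, 109 and 112 CPM in WT microglia at 1 d (log2 fold change 1.46, SE 0.20, adjusted p = 2.7e-05). Ndufv1, which binds the NADH flavin, went from 14.9, 12 and 9.38 to 21.6, 22.9 and 30.9 CPM (log2 fold change 1.05, SE 0.25, adjusted p = 0.0044). For both genes all injured libraries lay above all sham libraries. Ndufs1, the largest iron-sulfur subunit, was at 15.4, 12.8 and 11.1 CPM in sham against 16.7, 13.6 and 13.6 CPM at 1 d, and the groups overlapped (log2 fold change 0.16, SE 0.22, adjusted p = 0.71). Ndufa9, an accessory subunit, was at 27.4, 25.7 and 27.5 CPM in sham against 36, 50.3 and 34.4 CPM at 1 d and did not pass the test although its groups did not overlap (log2 fold change 0.58, SE 0.23, adjusted p = 0.095). Of the 7 conserved core subunits encoded in the nucleus, 3 were called higher (Ndufs8, Ndufv1 and Ndufv2), with a median of 0.62, and of the 29 accessory subunits 26 were, with a median of 1.13. That grouping was made after the values had been seen, and its difference was not tested.

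Complex II, succinate dehydrogenase, also works in the tricarboxylic acid cycle and has no subunit from mitochondrial DNA. Sdhb, its iron-sulfur subunit, was at 18.4, 13.5 and 18.1 CPM in sham and 28.8, 37.8 and 47.5 CPM in WT microglia at 1 d (log2 fold change 1.19, SE 0.29, adjusted p = 0.006), without overlap. The membrane anchors Sdhc (0.78 ± 0.21, adjusted p = 0.014) and Sdhd (0.77 ± 0.19, adjusted p = 0.0061) also rose, each given as log2 fold change ± SE. Sdha, the catalytic flavoprotein, was at 29.9, 29.8 and 38.4 CPM in sham and 38, 41.3 and 48.1 CPM after injury, where the lowest injured library lay under the highest sham library (log2 fold change 0.38, SE 0.20, adjusted p = 0.24).

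All 9 members of complex III, which hands electrons from ubiquinol to cytochrome c, were higher, with a median log2 fold change of 1.43. Uqcr11, a small accessory subunit, stood at 41.2, 63.1 and 41.4 CPM in sham and 142, 219.9 and 202 CPM at 1 d (log2 fold change 1.95, SE 0.20, adjusted p = 1.5e-06). Every injured library lay above every sham library for this gene. Cyc1, the heme-bearing cytochrome c1, rose from 13.5, 10.4 and 12.6 to 22.9, 37.3 and 37.9 CPM (log2 fold change 1.43, SE 0.26, adjusted p = 0.00062), and the Rieske protein Uqcrfs1 by 0.92 ± 0.22, adjusted p = 0.0064. The core protein Uqcrc1 passed narrowly (log2 fold change 0.62, SE 0.20, adjusted p = 0.042) and its sign turned under library totals (-0.13, adjusted p = 0.7).

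Complex IV, cytochrome c oxidase, had 13 of 18 tested members higher (median 1.5). Cox5a, which with Cox4i1 caps the catalytic core, rose from 27.5, 36.6 and 38.2 to 93.1, 123 and 138 CPM (log2 fold change 1.79, SE 0.21, adjusted p = 6.2e-06). Cox7b, a small transmembrane subunit, rose from 36.4, 24.6 and 32.1 to 104, 128 and 130.5 CPM (log2 fold change 1.96, SE 0.21, adjusted p = 2.5e-06). Neither overlapped with sham. Cox4i1 (1.44 ± 0.20, adjusted p = 3.2e-05) and Cox6c (1.53 ± 0.25, adjusted p = 0.0002) rose as well. Cox7a2l was the exception among the abundant members of this complex, at 57.9, 75.8 and 62.1 CPM in sham and 61.8, 57.9 and 45.7 CPM at 1 d, with overlapping groups (log2 fold change -0.24, SE 0.19, adjusted p = 0.42).

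Complex V had 16 of 17 members higher, with a median log2 fold change of 1.53, and Atp5s was the member not called. Atp5b, the catalytic beta subunit, was at 143, 131 and 164 CPM in sham and 385, 545 and 603 CPM at 1 d (log2 fold change 1.81, SE 0.22, adjusted p = 9.9e-06). Atp5a1, the alpha subunit of the same head, rose less (log2 fold change 1.13, SE 0.17, adjusted p = 8.9e-05). Atp5o, which ties the head to the stator, rose from 33.1, 32.2 and 35.2 to 89.4, 122 and 129 CPM (log2 fold change 1.76, SE 0.18, adjusted p = 2e-06), and Atp5e, the smallest subunit of the central stalk, by 1.92 ± 0.22, adjusted p = 4.6e-06. In each of these genes the injured libraries were all above sham. Atp5g1, 1 of the 3 genes for the proton-carrying ring subunit c, had the largest change of any member with a mean of at least 10 CPM, from 71.3, 78.3 and 65.5 to 280.2, 384 and 451 CPM (log2 fold change 2.37, SE 0.26, adjusted p = 3.6e-06).

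**Figure D2:**
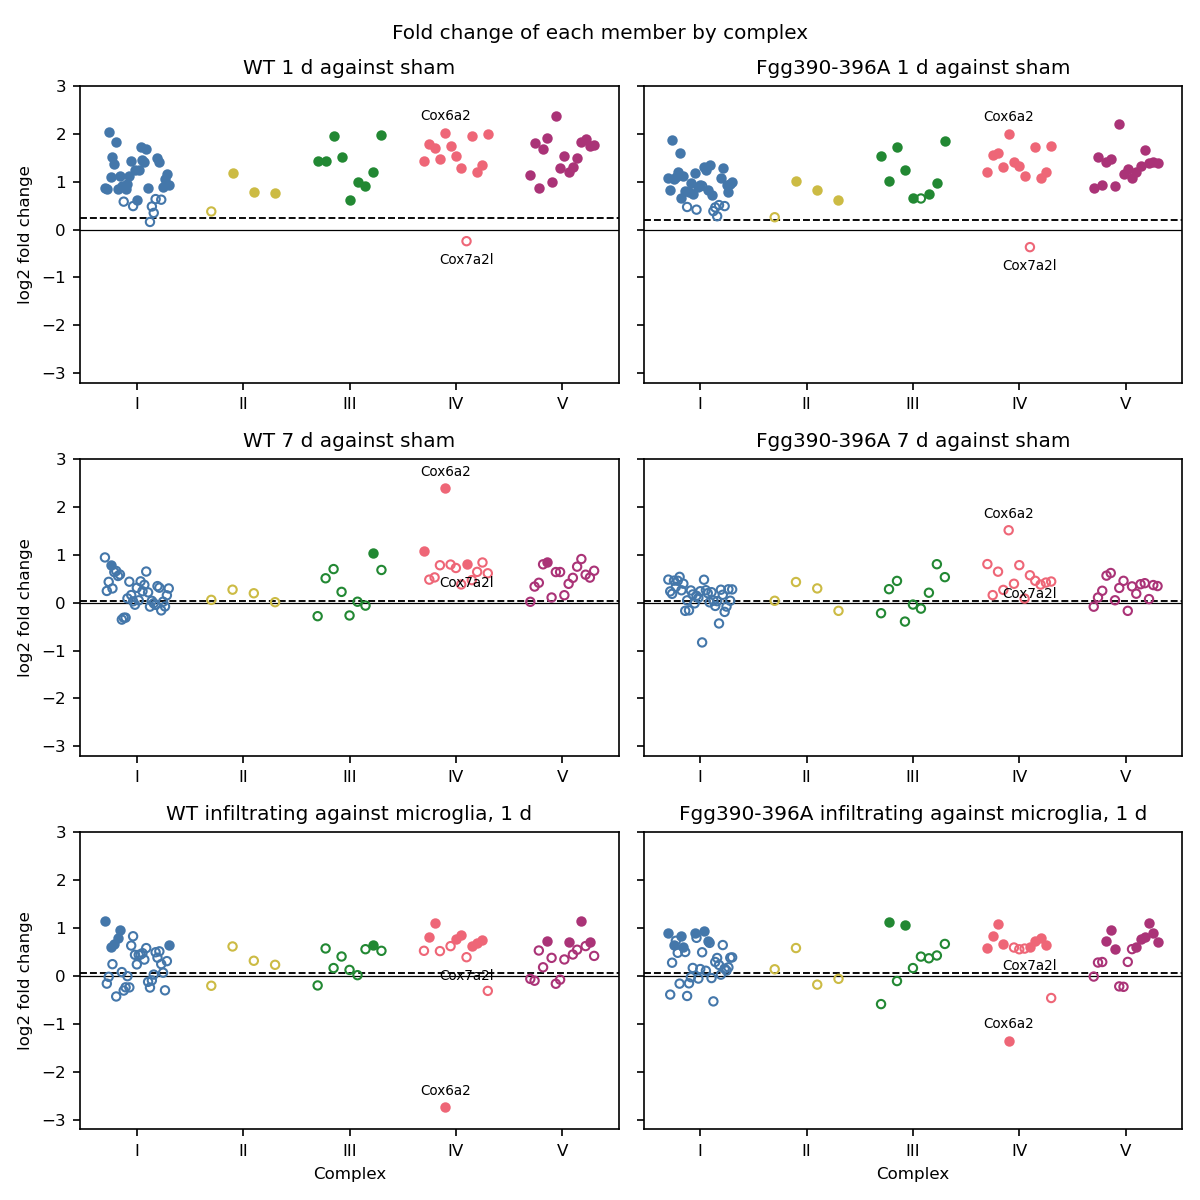
Log2 fold change of each member with a mean of at least 10 CPM, and of Cox6a2, by complex in 6 comparisons. Filled points passed edgeR's test at an adjusted p under 0.05, open points did not, and the dashed line is the median of genes with at least 10 CPM. At 1 d nearly all points lie above that line, at 7 d few are filled, and under library totals the 7 d medians turn negative (-0.16 in WT, -0.07 in Fgg390-396A).

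Transcript length moved with the result. Of the 76 abundant members, 59 were among the 1281 abundant genes with the shortest transcripts, and the members' median length was 693.5 bases. Over all 1281 the median log2 fold change was 0.62 and 44.9% of genes were called higher, against -0.03 and 20.7% in the 1281 genes with the longest. The part of length in the members' change was not tested. Exons of 30 members overlap another gene, 27 of them on the opposite strand. Without knowledge of the strand setting, reads from the shared bases cannot be told apart from those of the partner. The bases shared with a single partner ran from 0.11% (Ndufs1 with Eef1b2) to 39.0% (Ndufb6 with Smim27) of the member's exon bases.

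Fgg390-396A microglia at 1 d, set against the same sham libraries, had 68 of 84 members higher and none lower, where 7.6% of all genes were called higher and 2.19% lower, and 24.7% and 6.65% of the abundant genes. The median log2 fold change was 1.07 over the members and 0.21 over the abundant genes. By complex, 28 of 36, 3 of 4, 8 of 9, 13 of 18 and 16 of 17 were higher, with medians of 0.93, 0.73, 1.01, 1.31 and 1.32. Uqcr11 was at 152, 167 and 166 CPM, all above sham (log2 fold change 1.73, SE 0.20, adjusted p = 1e-05). Atp5g1 stood at 204, 346 and 447 CPM (log2 fold change 2.21, SE 0.26, adjusted p = 1.6e-05), and the library of replicate 1 was the lowest for this gene, as it was for the summed level. Cox7b (1.73 ± 0.21, adjusted p = 1.9e-05), Atp5o (1.39 ± 0.18, adjusted p = 4.5e-05) and Cox5a (1.56 ± 0.21, adjusted p = 5.4e-05) completed the 5 smallest adjusted p-values. Sdha (0.26 ± 0.20, adjusted p = 0.51), Ndufs1 (0.38 ± 0.22, adjusted p = 0.35) and Cox7a2l (-0.37 ± 0.19, adjusted p = 0.27) did not pass here either. Under library totals 35 members were higher and Cox7a2l was lower. Core and accessory subunits of complex I had 3 of 7 and 25 of 29 members higher, with medians of 0.49 and 0.98.

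At 7 d the picture in WT microglia was narrower. Only 6 of 84 members were higher than in sham in this test and none was lower, against 2.42% of all genes higher and 0.265% lower (8.05% and 0.987% of the abundant genes), and 35 had an unadjusted p under 0.05, as had 2783 of all 23815 genes. The median was 0.36 over the members and 0.03 over the abundant genes, but -0.16 and -0.53 under library totals, where 1 member was higher (Cox6a2) and 3 were lower (Ndufa9, Ndufa8 and Uqcrc1). Relative to the median abundant gene the members stood 0.33 higher under TMM and 0.37 higher under library totals, a gap that rescaling by itself hardly moves. The count depended on the method, with 21 higher by DESeq2 and 3 without replicate 1 of the WT 7 d group.

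The 6 were 3 members of complex IV and 1 each of complexes I, III and V. Cox6a2, the isoform of subunit 6a best known from heart and skeletal muscle, was at 3.73, 1.52 and 5.10 CPM in sham and 19.7, 19.9 and 15.1 CPM at 7 d (log2 fold change 2.39, SE 0.38, adjusted p = 0.0011), with no overlap. Cox4i1 rose from 106, 124 and 83.5 to 264, 184 and 218 CPM (log2 fold change 1.09, SE 0.20, adjusted p = 0.0031), and Uqcrh, the hinge protein of complex III, from 74, 62.7 and 57.5 to 149.9, 112 and 135 CPM (log2 fold change 1.03, SE 0.20, adjusted p = 0.0065). These groups did not overlap either. Cox7a2l (0.80 ± 0.19, adjusted p = 0.02), the complex I subunit Ndufa13 (0.78 ± 0.18, adjusted p = 0.022) and Atp5e (0.84 ± 0.21, adjusted p = 0.034) were the others. The calls of these 5 genes were lost under library totals and with the ribosomal RNA share as a covariate, whereas that of Cox6a2 held under every alternative run.

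In Fgg390-396A microglia at 7 d none of the 84 members passed edgeR's test against sham, where 0.831% of all genes were called higher and 0.0546% lower, and 2.79% and 0.186% of the abundant genes. An unadjusted p under 0.05 was found for 19 members, 18 of them with higher levels than sham, and for 1808 of all 23815 genes. DESeq2 called 4 higher, namely Cox4i1, Cox6a2, Uqcrh and Cox7a1. The median log2 fold change was 0.26 over the members and 0.04 over the abundant genes, and -0.07 and -0.29 under library totals. Cox4i1 was nearest to the threshold, at 166, 171 and 213 CPM (log2 fold change 0.81, SE 0.19, adjusted p = 0.055), followed by Cox6a2 at 14.8, 5.85 and 9.11 CPM (log2 fold change 1.52, SE 0.37, adjusted p = 0.058), and neither overlapped with sham.

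Levels at 7 d were then tested against 1 d. In WT microglia 54 members were lower at 7 d and 1 was higher, while 6.6% of all genes were lower and 3.7% higher, and 22.5% and 10.3% of the abundant genes. The median log2 fold change was -0.89 over the members and -0.19 over the abundant genes. The 54 were 21 members of complex I, 2 of II, 8 of III, 9 of IV and 14 of V. Atp5g1 went from 280.2, 384 and 451 to 112, 118 and 105 CPM (log2 fold change -1.73, SE 0.26, adjusted p = 0.00017), Cox7b from 104, 128 and 130.5 to 42.4, 38 and 48.8 CPM (log2 fold change -1.49, SE 0.21, adjusted p = 9.7e-05) and Atp5b from 385, 545 and 603 to 225, 150.1 and 179 CPM (log2 fold change -1.47, SE 0.22, adjusted p = 0.00019). All 7 d libraries lay below all 1 d libraries for these 3 genes. Atp5g3 (-1.37 ± 0.21, adjusted p = 0.00021) and Atp5a1 (-1.11 ± 0.17, adjusted p = 0.00024) fell too. Without replicate 2 of the WT 7 d group 34 members were lower. Between these times summed monocyte and macrophage markers went from 108 to 189 CPM at 1 d to 30.4 to 74.9 CPM at 7 d, and microglial markers from 3183 to 5077 CPM to 7628 to 8488 CPM. Of the monocyte and macrophage markers, Fn1 was at 70.3 to 142 CPM at 1 d and 4.64 to 24.0 CPM at 7 d. Ccr2 was at 1.99 to 27.8 CPM and 10.7 to 12.2 CPM. Of the microglial markers, P2ry12 was at 169 to 659 CPM at 1 d and 1595 to 1695 CPM at 7 d. Olfml3 was at 227 to 344 CPM and 275 to 303 CPM. The part of cell composition in the members' fall was not tested.

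Fgg390-396A microglia had 45 members lower at 7 d than at 1 d and 1 higher, against 4.56% of all genes lower and 1.08% higher (16% and 3.61% of the abundant genes), with medians of -0.79 and -0.15. Here 16 members of complex I, 1 of II, 5 of III, 8 of IV and 15 of V were lower. Uqcrb, a small subunit at the quinone site of complex III, went from 30.3, 39.2 and 36.2 to 14.5, 9.73 and 9.54 CPM (log2 fold change -1.64, SE 0.22, adjusted p = 0.00017), and Cyc1 from 26.4, 48.7 and 31.3 to 10.5, 11.6 and 9.32 CPM (log2 fold change -1.76, SE 0.27, adjusted p = 0.00047). Neither gene overlapped between the times. Atp5g1 (-1.90 ± 0.26, adjusted p = 0.00017), Atp5g3 (-1.43 ± 0.21, adjusted p = 0.00033) and Cox5a (-1.40 ± 0.21, adjusted p = 0.00038) were also among the 5 smallest adjusted p-values. The count changed with single libraries, with 19 lower without replicate 3 of the Fgg390-396A 1 d group, 21 without its replicate 2, 21 without replicate 2 of the 7 d group and 29 without its replicate 3. Summed monocyte and macrophage markers were at 37.7 to 130 CPM at 1 d and 30.9 to 43.1 CPM at 7 d, and microglial markers at 5826 to 7414 and 8664 to 9962 CPM. Of the former, Fn1 was at 25.6 to 39.3 CPM and 2.64 to 5.84 CPM. Ccr2 was at 1.41 to 27.7 CPM and 5.74 to 10.7 CPM. Of the microglial markers, P2ry12 was at 724 to 1632 CPM and 2115 to 2433 CPM. Olfml3 was at 196 to 295 CPM and 170 to 233 CPM. The part of cell composition was likewise not tested. The 2 time comparisons share no library, and 37 members were lower in both, which is 68.5% of the WT list and 82.2% of the Fgg390-396A list. The share of all genes lower in both is not given here, so this overlap is not read as particular to the members. No member passed the test of the difference in time course between genotypes (adjusted p = 1 for all), nor did any of the 23815 genes tested, and 1 member had an unadjusted p under 0.05.

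Cox7a2l was the member that went up with time in both genotypes. From 61.8, 57.9 and 45.7 CPM at 1 d it rose to 129, 103 and 109 CPM at 7 d in WT microglia (log2 fold change 1.05, SE 0.19, adjusted p = 0.00093). In Fgg390-396A microglia it rose from 44.1, 52.9 and 54.7 to 82.3, 102 and 107 CPM (log2 fold change 0.94, SE 0.19, adjusted p = 0.004). The times did not overlap in either genotype, and both calls held under every alternative run, library totals included.

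**Figure D3:**
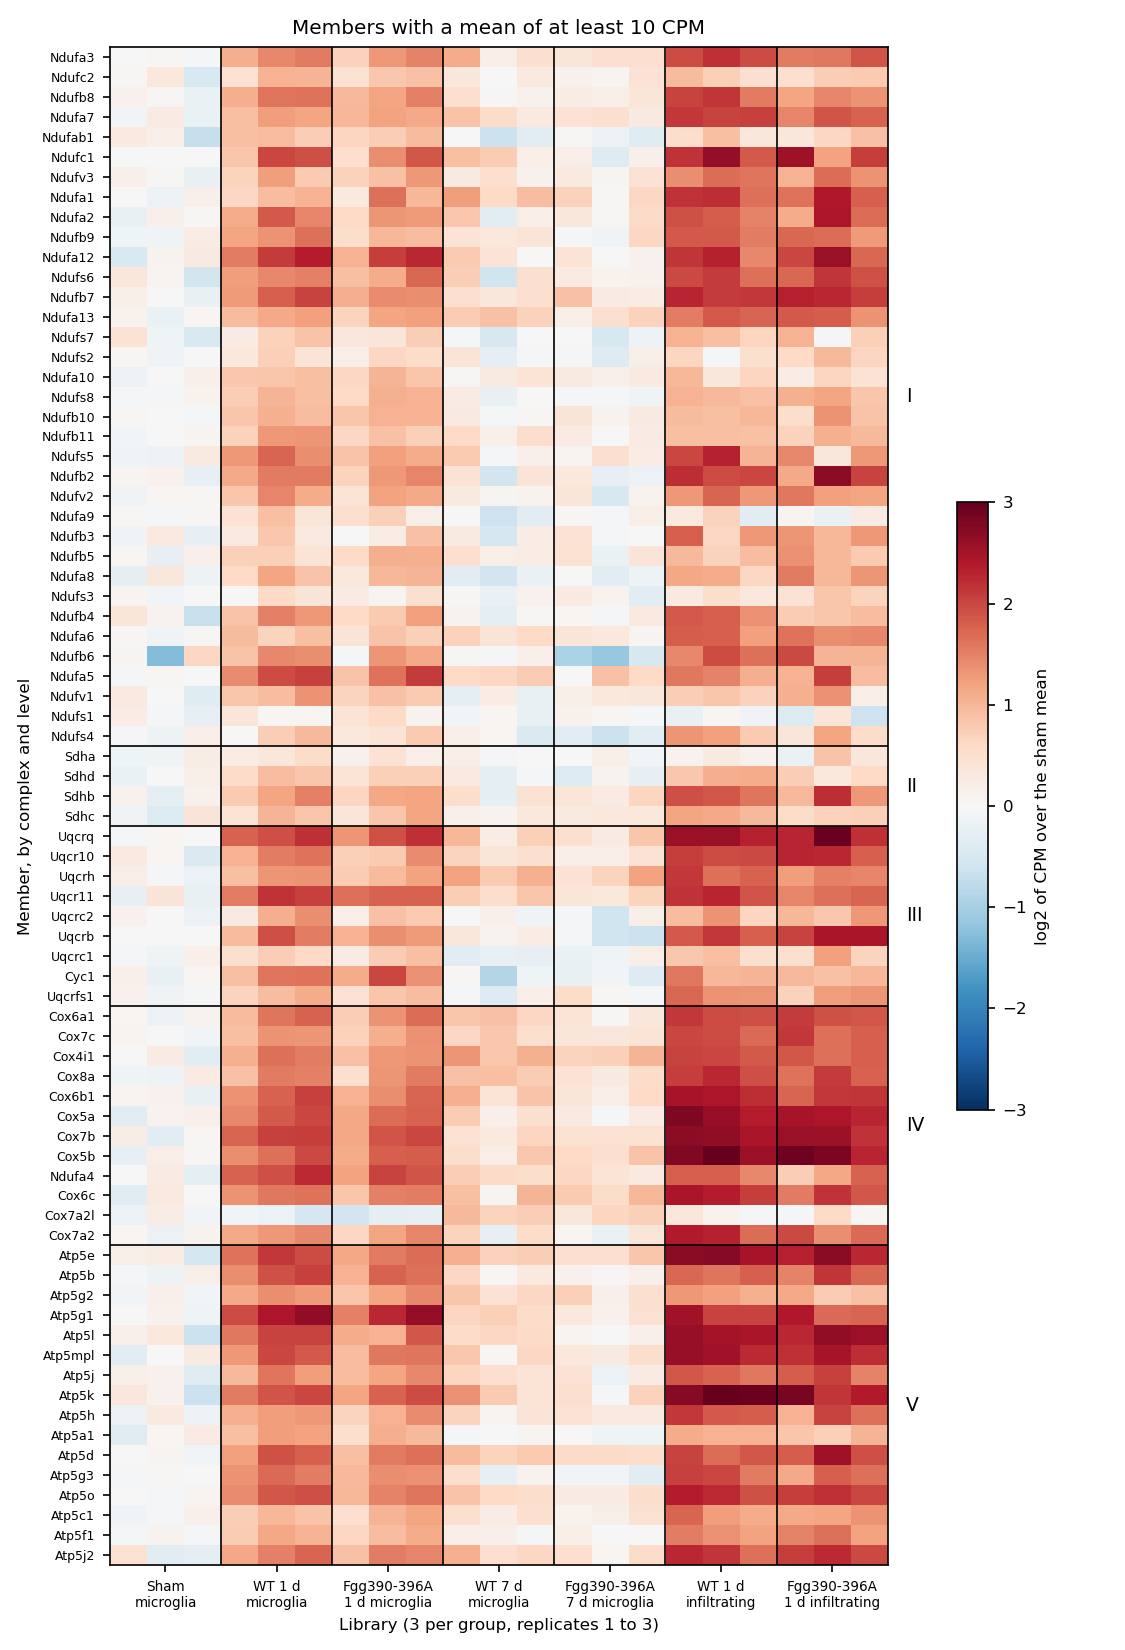
Log2 of CPM over the sham mean for the 76 members with a mean of at least 10 CPM (rows, by complex and level) in the 21 libraries (columns, 3 per group). Most rows are red at 1 d, paler at 7 d and darkest in infiltrating cells, and Cox7a2l is higher at 7 d than at 1 d. Values are TMM-scaled, and under library totals the 7 d medians turn below sham (-0.16 in WT, -0.07 in Fgg390-396A).

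Across the 4 WT groups, 49 of 76 abundant members had means in the order sham, 7 d microglia, 1 d microglia, infiltrating cells, against 20.8% of all genes of that abundance. The same order of means was found for 48 members in the Fgg390-396A series, whose sham group is the same, against 20.8% of genes. These are orders of means of 3 libraries, given as a description.

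Whether the fibrin motif altered these transcripts was asked by comparing genotypes within each cell population and time. In microglia at 1 d no member passed edgeR's test, 4 had an unadjusted p under 0.05, as had 1209 of all 23815 genes, and DESeq2 called none, while 0.0294% of all genes were higher and 0.0126% lower. The median log2 fold change was -0.17 over the members and -0.04 over the abundant genes, and 0.15 and 0.29 under library totals. Among members with at least 10 CPM the fold changes ran from -0.58 to 0.31, with a median SE of 0.22 over all members. The summed levels overlapped, with a ratio of Fgg390-396A to WT of 0.866. Summed microglial markers were at 5826 to 7414 CPM in Fgg390-396A and 3183 to 5077 CPM in WT microglia, and monocyte and macrophage markers at 37.7 to 130 against 108 to 189 CPM. Of the latter, Fn1 was at 25.6 to 39.3 against 70.3 to 142 CPM. Ccr2 was at 1.41 to 27.7 against 1.99 to 27.8 CPM. Of the microglial markers, P2ry12 was at 724 to 1632 against 169 to 659 CPM. Olfml3 was at 196 to 295 against 227 to 344 CPM. The part of cell composition in these values was not tested.

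At 7 d no member passed, 6 had an unadjusted p under 0.05, as had 795 of all 23815 genes, and DESeq2 called none, against 0.0252% of all genes higher and 0.0126% lower. The median was -0.15, against -0.01 over the abundant genes, and it became 0.06 under library totals. Cox6a2 was at 19.7, 19.9 and 15.1 CPM in WT and 14.8, 5.85 and 9.11 CPM in Fgg390-396A microglia (log2 fold change -0.88, SE 0.36, unadjusted p = 0.024, adjusted p = 1). Its groups did not overlap. Summed microglial markers were at 7628 to 8488 CPM in WT and 8664 to 9962 CPM in Fgg390-396A microglia, without overlap. The single markers did not all go this way. P2ry12 was at 1595 to 1695 CPM in WT and 2115 to 2433 CPM in Fgg390-396A microglia, and Olfml3 at 275 to 303 and 170 to 233 CPM. The part of cell composition in these values was not tested.

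In infiltrating myeloid cells no member passed edgeR's test, 9 had an unadjusted p under 0.05, as had 2749 of all 23815 genes, and DESeq2 called 1 higher (Cox6a2) and 1 lower (Ndufb4). Of all genes, 0.122% were called higher and 0.084% lower. The median log2 fold change was -0.11 over the members and -0.03 over the abundant genes, and the summed levels overlapped at a ratio of 0.910. Cox6a2 was at 2.68, 1.32 and 2.25 CPM in WT and 5.87, 4.66 and 5.82 CPM in Fgg390-396A cells (log2 fold change 1.37, SE 0.38, adjusted p = 0.16), without overlap. Ndufb4, a membrane-arm subunit of complex I, was at 48.4, 46.3 and 34.5 CPM in WT against 22.9, 23.8 and 25.3 CPM in Fgg390-396A cells (log2 fold change -0.84, SE 0.24, adjusted p = 0.18), also without overlap. A near-identical copy of Ndufb4 held 195% of its own counts, so its level is uncertain. Ndufb8 was at 149, 160.0 and 106 CPM in WT against 82.9, 100.1 and 92.8 CPM in Fgg390-396A cells (log2 fold change -0.59, SE 0.19, adjusted p = 0.25). Summed neutrophil markers were at 3582 to 13271 CPM in WT and 2799 to 5884 CPM in Fgg390-396A infiltrating cells, and their part in these values was not tested.

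Infiltrating myeloid cells were then compared with microglia of the same genotype at 1 d. In WT mice 18 members were higher in infiltrating cells and 2 were lower, against 7.56% of all genes higher and 8.12% lower, and 20.7% and 15.5% of the abundant genes. The median was 0.43 over the members and 0.06 over the abundant genes. Ndufa7, an accessory subunit of complex I, stood at 63.5, 81.5 and 77.1 CPM in microglia and 149, 139 and 142 CPM in infiltrating cells (log2 fold change 0.95, SE 0.17, adjusted p = 0.00046). Cox5b, the zinc-binding subunit of complex IV, stood at 72.8, 87.1 and 109.6 CPM in microglia and 190.3, 226 and 167 CPM in infiltrating cells (log2 fold change 1.11, SE 0.23, adjusted p = 0.0019). Neither gene overlapped. Ndufa6 (0.79 ± 0.17, adjusted p = 0.0033), Ndufa1 (1.16 ± 0.29, adjusted p = 0.0085) and Atp5k (1.16 ± 0.29, adjusted p = 0.0088) were also higher. Without replicate 1 of the WT 1 d microglia, whose summed level was the lowest of its group, 5 members were higher. Without replicate 1 of the infiltrating cells 9 were, and without its replicate 2 there were 12.

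In Fgg390-396A mice 26 members were higher in infiltrating cells and 2 lower, where 9.33% of all genes were higher and 12.1% lower, and 23.6% and 19.1% of the abundant genes. The median was 0.49, against 0.06 over the abundant genes. The direction depended on scaling, with 5 members higher and 10 lower under library totals, where the members' median was 0.13 and that of the abundant genes -0.34. Uqcr10 (1.12 ± 0.22, adjusted p = 0.00086), Uqcrb (1.07 ± 0.22, adjusted p = 0.0014), Atp5l (1.11 ± 0.23, adjusted p = 0.0016), Cox5b (1.09 ± 0.23, adjusted p = 0.0018) and Ndufa6 (0.83 ± 0.17, adjusted p = 0.0018) had the smallest adjusted p-values among the higher ones. Without replicate 1 of the Fgg390-396A 1 d microglia 11 members were higher, and without replicate 2 of the infiltrating cells 15 were. The 2 population comparisons share no library. Of the higher members 12 were common to both, 66.7% of the WT list and 46.2% of the Fgg390-396A list, and the same 2 were lower. Such shares over all genes are not given here, so these overlaps too are not read as particular to the members.

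The 2 lower members were Cox6a2 and Atp5s. Cox6a2 fell from 13.2, 13.2 and 16 CPM in WT microglia to 2.68, 1.32 and 2.25 CPM in WT infiltrating cells (log2 fold change -2.74, SE 0.39, adjusted p = 5e-05). In Fgg390-396A mice it fell from 11.4, 16.5 and 13.9 to 5.87, 4.66 and 5.82 CPM (log2 fold change -1.35, SE 0.36, adjusted p = 0.011). The populations did not overlap in either genotype, and both calls held under every alternative run. The difference between these 2 falls was 1.39 on the log2 scale (SE 0.52, unadjusted p = 0.014, adjusted p = 0.53), and no member passed the test of that interaction, where 0% of all genes were called higher and 0.0252% lower. Atp5s was low in every group, at 2.86, 2.50 and 7.46 CPM in WT microglia and 0.943, 1.05 and 0.135 CPM in infiltrating cells (log2 fold change -2.57, SE 0.80, adjusted p = 0.032), and its calls were lost under many of the alternatives.

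Several subunits are encoded by paralogs known to differ between tissues, and their balance was followed group by group. Cox6a2 supplied 1.70% ± 0.76 of the Cox6a transcripts in sham microglia (SD, n = 3), 2.67% ± 0.66 in WT microglia at 1 d, 5.18% ± 0.32 at 7 d and 0.267% ± 0.080 in WT infiltrating cells. The 7 d libraries lay above all sham and all 1 d libraries, and the infiltrating ones below them all. Its exons share 70 bases with Itgad on the other strand, 10.3% of its length, and the mean of Itgad was at most 0.306 CPM in any group. Cox6a1, the common isoform, rose at 1 d from 199.8, 170.4 and 209 to 374, 584 and 660.1 CPM (log2 fold change 1.48, SE 0.22, adjusted p = 8e-05).

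Atp5g1, Atp5g2 and Atp5g3 encode the same mature subunit c behind different import sequences. Atp5g1 made up 28.5% ± 0.91 of their sum in sham microglia, 44.6% ± 4.7 in WT microglia at 1 d and 30.2% ± 4.2 at 7 d (SD, n = 3). The 1 d libraries were above all others of these groups. In Fgg390-396A microglia the shares were 43.8% ± 5.0 and 28.3% ± 2.6, and in WT infiltrating cells 41.1% ± 3.5. Atp5g2, which led in sham at 54.6% ± 1.0, was at 40.6% ± 3.5 in WT microglia at 1 d, although its own level rose (log2 fold change 1.28, SE 0.18, adjusted p = 5e-05), as did that of Atp5g3 (log2 fold change 1.53, SE 0.21, adjusted p = 2.9e-05). Copies of Atp5g2 elsewhere held 14.4% of its counts.

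Among the Cox7a genes, Cox7a2l made up 72.6% ± 4.5 of the sum in sham microglia, 47.2% ± 6.5 in WT microglia at 1 d, 78.5% ± 4.3 at 7 d and 39.3% ± 3.1 in WT infiltrating cells (SD, n = 3). Cox7a2, the common isoform of the enzyme itself, rose at 1 d (log2 fold change 1.30, SE 0.26, adjusted p = 0.0012) and fell at 7 d (log2 fold change -0.91, SE 0.25, adjusted p = 0.024). Cox7a1, the isoform known from muscle, had no count in the 3 sham and the 3 WT 7 d libraries and 24, 55 and 52 counts in WT microglia at 1 d. That is at least 17.3-fold higher than in sham, taking 3 counts per library as the limit, with an adjusted p of 0.0039. In Fgg390-396A microglia at 1 d it had 46, 92 and 23 counts, at least 13.8-fold higher than in sham (adjusted p = 0.0083). Infiltrating WT cells had 158, 42 and 182 counts.

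The other rare isoforms stayed close to the floor. Cox4i2, known as the hypoxia-responsive form of subunit 4, had 62 counts in all libraries together, Cox8b 26 and Ndufa4l2 16, the last all in infiltrating cells. Cox6b2 was at 13 to 315 counts per group and did not pass any test. Their abundant partners Cox6b1 (1.74 ± 0.22, adjusted p = 1.3e-05), Cox8a (1.35 ± 0.23, adjusted p = 0.00032) and Ndufa4 (2.00 ± 0.25, adjusted p = 1.1e-05) all rose in WT microglia at 1 d. Cox4i1 supplied at least 99.78% of the Cox4i transcripts in every library.

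**Figure D4:**
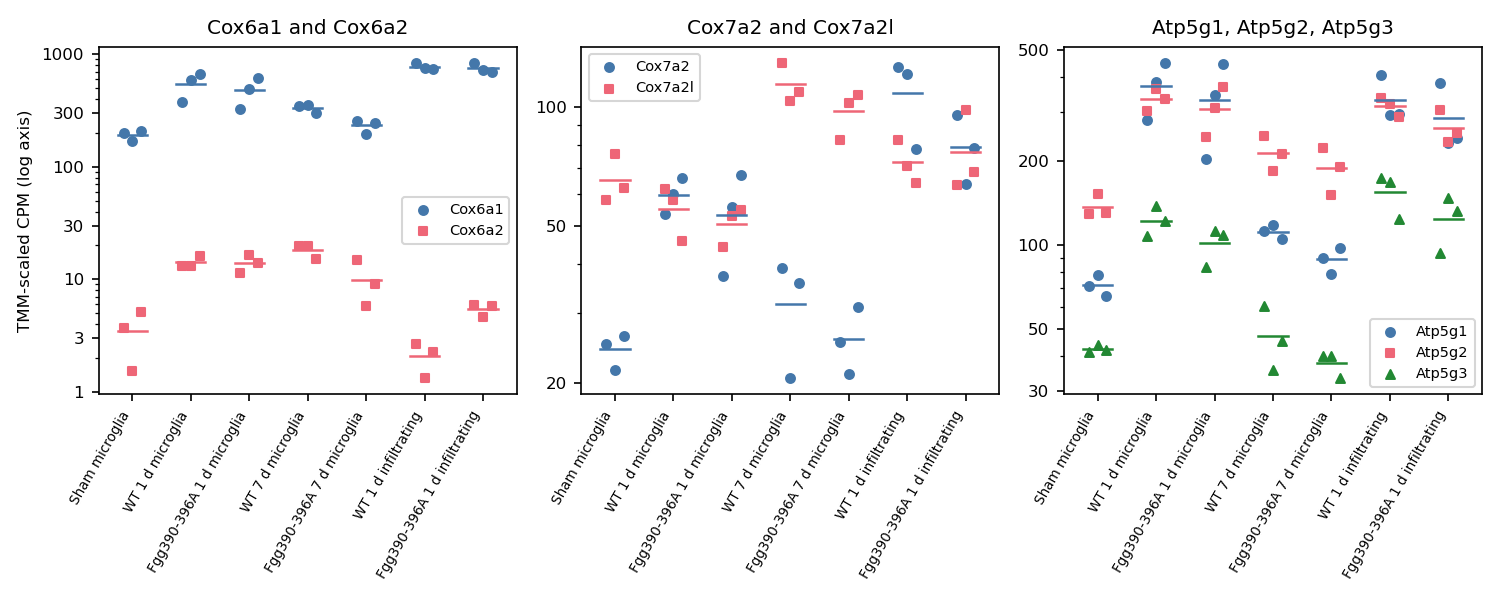
TMM-scaled CPM on log axes of 3 paralog sets in each library (points) and group means (lines). Cox6a2 is highest in WT 7 d microglia and lowest in WT infiltrating cells, Cox7a2l lies above Cox7a2 in sham and at 7 d, and Atp5g1 rises above Atp5g2 in the mean at 1 d. Relative positions within a library do not depend on the scaling.

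The 13 subunits encoded by mitochondrial DNA gave a second view of the same complexes. In WT microglia at 1 d 12 of 13 were higher than in sham, where 10.7% of all genes were. Their median log2 fold change was 1.31, close to that of the nuclear members. Cytochrome c oxidase subunit mt-Co1 (log2 fold change 1.5, SE 0.25, adjusted p = 0.00025) and ATP synthase subunit mt-Atp8 (1.62 ± 0.30, adjusted p = 0.0006) were among them. In Fgg390-396A microglia at 1 d 7 were higher (median 0.85), against 7.6% of all genes. At 7 d 3 were higher in WT microglia, mt-Nd5, mt-Nd6 and mt-Co1, with a median of 0.88, against 2.42% of all genes. None was in Fgg390-396A microglia (median 0.40), against 0.831% of all genes. There 3 had an unadjusted p under 0.05, as had 1808 of all 23815 genes. Under library totals the medians of these 4 comparisons, as log2 ratios of mean CPM, were 0.49, 0.36, 0.30 and 0.06.

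In infiltrating cells the groups of genes parted. Of the 13, 12 were lower in WT infiltrating cells than in WT microglia, where 8.12% of all genes were. Their median was -1.56, and -1.57 under library totals, whereas the nuclear members had a median of 0.43. The complex I subunits mt-Nd6 (-1.83 ± 0.21, adjusted p = 6.1e-06) and mt-Nd5 (-1.56 ± 0.21, adjusted p = 2.5e-05) and the cytochrome b gene mt-Cytb (-1.78 ± 0.22, adjusted p = 1.4e-05) had the smallest adjusted p-values. In Fgg390-396A mice 5 were lower (median -0.63), against 12.1% of all genes. Mitochondrially encoded transcripts summed to 7.42 to 9.45 times the nuclear members in sham microglia and to 1.76 to 3.46 times in infiltrating cells of both genotypes. In microglia at 1 d they summed to 6.16 to 8.84 times in WT and 5.88 to 7.97 times in Fgg390-396A mice. This ratio does not depend on the scaling. Neutrophil markers were at 2799 to 13271 CPM in the infiltrating libraries, and their part in the ratio was not tested. Between genotypes at 7 d, the mitochondrially encoded sums of microglia did not overlap, at 51307 to 51617 CPM in WT and 35240 to 37092 CPM in Fgg390-396A mice. No single gene of the 13 was called, and 2 had an unadjusted p under 0.05, as had 795 of all 23815 genes.

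**Figure D5:**
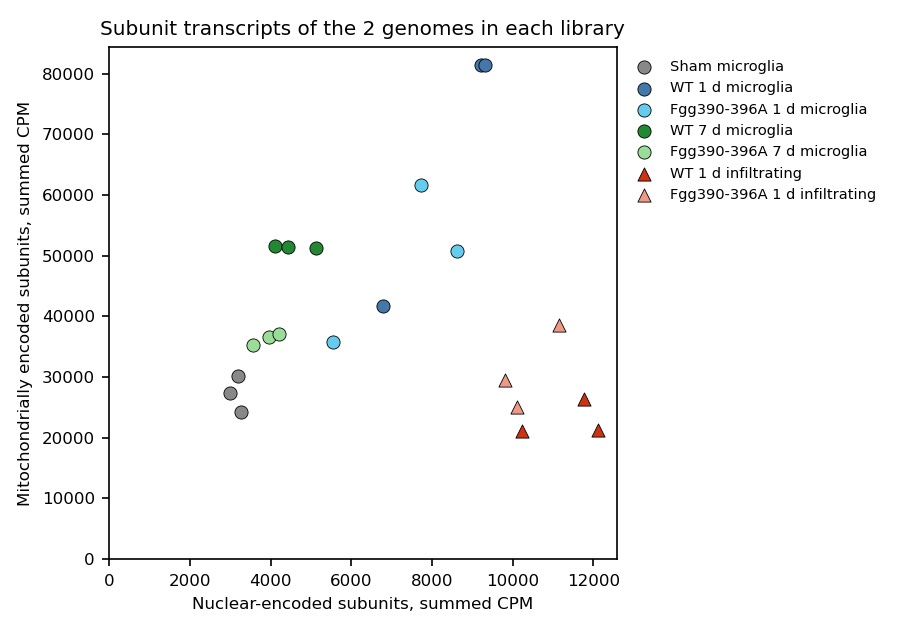
Summed CPM of the 13 mitochondrially encoded subunits against that of the 84 nuclear-encoded members in each library (points, colored by group; triangles are infiltrating cells). Microglia spread upward and to the right at 1 d, while infiltrating cells lie at the far right with mitochondrial sums of 21049 to 38577 CPM. The ratio of the sums is 7.42 to 9.45 in sham, 5.88 to 8.84 in 1 d microglia of both genotypes and 1.76 to 3.46 in infiltrating cells under any scaling.

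Genes that serve the complexes were followed in WT microglia at 1 d against sham, where 10.7% of all genes were called higher and 5.97% lower. Among electron carriers and ATP exchange proteins 11 of 17 were higher (median 1.03), cytochrome c (Cycs, 1.92 ± 0.26, adjusted p = 2.4e-05) and the electron transfer flavoprotein subunit Etfa (1.34 ± 0.19, adjusted p = 5e-05) with them. Mitochondrial import and outer membrane genes had 17 of 24 higher (median 1.18), led by the chaperones Hspd1 (2.22 ± 0.23, adjusted p = 2.1e-06) and Hspa9 (1.70 ± 0.20, adjusted p = 7.6e-06). Mitochondrial ribosomal proteins had 37 of 78 higher (median 0.91), and enzymes against superoxide and peroxide 7 of 10 (median 0.98), such as Gpx1 (1.66 ± 0.16, adjusted p = 9.3e-07) and Sod2 (1.33 ± 0.26, adjusted p = 0.001). No gene of these 4 lists was lower. Their medians stayed positive under library totals, at 0.24, 0.40, 0.17 and 0.24 as log2 ratios of mean CPM.

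Assembly factors, the tricarboxylic acid cycle and regulators of biogenesis were read against the same background of 10.7% of all genes called higher and 5.97% lower. Of 14 assembly factors for complex I 2 were higher (Ndufaf2 and Ndufaf4), with a median of 0.51, and of 33 for complexes II to V 5 were higher, with Uqcc2 (2.07 ± 0.32, adjusted p = 0.00011) first and a median of 0.31. Both medians turned negative under library totals (-0.22 and -0.43). In the tricarboxylic acid cycle and pyruvate dehydrogenase list 10 of 23 were higher, as malate dehydrogenase Mdh2 (1.35 ± 0.19, adjusted p = 5.5e-05), and 1 was lower, the kinase Pdk1 (-0.65 ± 0.19, adjusted p = 0.021), with a median of 0.74 that became -0.01 under library totals. Among 18 regulators of mitochondrial biogenesis 2 were higher, Hif1a (0.68 ± 0.17, adjusted p = 0.0081) and Myc (1.05 ± 0.34, adjusted p = 0.042), and 1 was lower, Nrf1 (-0.84 ± 0.28, adjusted p = 0.045), the factor that binds the NRF1 motif. That list had a median of -0.47.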

How the data were processed

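RNA was measured in 21 libraries of sorted myeloid cells, 3 per group. Per the labels and the study's methods, the authors amplified RNA with the Ovation RNA-seq System V2, sequenced paired ends and ran the nf-core/rnaseq workflow against GRCm38/mm10. They deposited 1 table of salmon's estimated counts per gene, scaled for transcript length, of which 39.1% were not whole. The submitters' processing notes name R 4.2.0 and DESeq2 1.36.0. Whether the counting used strand is not given in the sources used here. All 21 columns matched a sample.

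The estimated counts were rounded to whole numbers, and the 23815 genes with a summed count of at least 5 were tested. One model with a term for each of the 7 groups was fitted with edgeR 4.0.16 (TMM scaling, quasi-likelihood test, R 4.3.3), and 11 pairwise contrasts and 2 interactions were tested. Benjamini-Hochberg adjustment ran over all genes, and a gene was called at an adjusted p under 0.05. The standard error of a fold change was its size divided by the square root of the F statistic. Abundant genes had a mean of at least 10 CPM. The p-values measure the spread between libraries, each a pool of 2 brains. Alternatives were DESeq2 1.42.0, other scalings and filters, the replicate number, the ribosomal RNA share, added copies and leaving out each library. The code was tested on simulated data.

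Members, lists and tests were chosen with earlier results of these data known. Named were fixed representatives of each complex, the paralog sets, up to 5 members per direction and comparison with the smallest adjusted p, the 5 most and 5 least abundant, all members of counts of 5 or fewer where they are named, and up to 3 genes per direction of each other list. Copies were matches of at least 95% identity over 150 bases (blastn 2.17.0+). Promoters came from RefSeq. They were not used here for 19 members that had no entry.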

Additional observations from a re-analysis of the deposited data

How the results depend on the processing

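In all, 221 of 274 recomputed member counts and summed levels kept within 1.5 times or 1 SD of the reported value. Of 7742 recomputed values of named members 7379 kept direction and call, 275 lost the call, 87 gained it and 1 turned (Uqcrc1, WT 1 d against sham, -0.13 under library totals). The cause of each change was not tested. Against sham, WT 1 d gave 33 called members under library totals, 33 with the ribosomal RNA share as covariate and 13 with that share and the replicate block. WT 7 d gave 21 by DESeq2, 10 with its size factors, 15 with filterByExpr, 1 with the ribosomal share, 1 with share and block, 12 with only the groups compared and 3 with a log2 fold change above 1. Fgg390-396A 1 d gave 36 under library totals, and 7 d gave 4 by DESeq2, 3 with filterByExpr, 1 with the block and 1 with the share. From 1 d to 7 d, WT gave 36 under library totals and 33 at a log2 fold change above 1, and Fgg390-396A 24 at that bar. Between genotypes in infiltrating cells DESeq2 gave 2. Infiltrating cells against microglia gave in WT 36 by DESeq2, 31 with filterByExpr, 12 with the share, 7 with share and block and 5 at the fold bar, and in Fgg390-396A mice 44 by DESeq2, 15 under library totals, 15 with only the groups compared and 6 at the fold bar.

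Leaving out 1 library at a time gave 65 to 70 called members for WT 1 d and 3 to 6 for WT 7 d against sham, 51 to 68 for Fgg390-396A 1 d and 0 to 1 for 7 d. It gave 35 to 65 for WT and 20 to 57 for Fgg390-396A microglia from 1 d to 7 d, 7 to 19 for WT and 12 to 34 for Fgg390-396A infiltrating cells against microglia, and 0 in the genotype comparisons and interactions. The 1 call in Fgg390-396A microglia at 7 d came without its replicate 1, without its replicate 2 or without sham replicate 3.

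Averaged over all groups, same-numbered libraries showed little pairing. Their deviations had a mean r of 0.036 (highest 0.48), other numbers -0.018, and 17 of 63 pairs passed 0.1. Whether microglia and infiltrating cells of the same number came from the same brains is not given in the sources. That pairing was not tested by itself, and the tests between populations took the libraries as independent. With the replicate block 69, 9, 68 and 1 members were called against sham (WT 1 d, WT 7 d, Fgg390-396A 1 d and 7 d), 54 and 46 from 1 d to 7 d, 0 between genotypes and in interactions, and 19 and 25 between populations.

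With ribosomal and mitochondrially encoded genes removed, summed levels were 6978 CPM in sham, 18979 and 16367 CPM at 1 d and 10067 and 8677 CPM at 7 d (WT and Fgg390-396A), and 25008 and 22904 CPM in infiltrating cells. Under library totals they were 4555 CPM in sham, 4495 CPM in Fgg390-396A 7 d, and 9525 and 8369 CPM in infiltrating cells. With 3 libraries a group, the median SE of a single member's genotype difference at 1 d was 0.22. It does not measure the spread of the members' median difference (-0.17).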

Other observations

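For the lists that serve the complexes, 7 d was also set against 1 d in microglia, where 6.6% of all genes were called lower in WT and 4.56% in Fgg390-396A cells. Of 78 mitochondrial ribosomal proteins 29 were lower in WT and 22 in Fgg390-396A cells, with median log2 fold changes of -0.84 and -0.77, and of 24 import and outer membrane genes 11 and 13 were lower (-0.88 and -0.87). The tricarboxylic acid cycle list had 11 and 6 of 23 lower, the carriers 8 and 8 of 17, complex I assembly factors 4 and 1 of 14, factors for complexes II to V 3 and 1 of 33, and the superoxide list 4 and 3 of 10. No biogenesis regulator was called in either direction, with medians of 0.19 and 0.20. By edgeR 5 and 1 of 18 had an unadjusted p under 0.05 in either direction, as had 5242 and 3894 of all 23815 genes. Against sham at 7 d, Gpx1, a glutathione peroxidase, was higher in WT (log2 fold change 1.10, SE 0.16, adjusted p = 0.00052) and in Fgg390-396A microglia (log2 fold change 0.77, SE 0.16, adjusted p = 0.019).

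In infiltrating myeloid cells the superoxide and peroxide list had 4 of 10 genes higher than in WT microglia and 5 of 10 in Fgg390-396A mice, at medians of 0.60 and 0.82 and none lower. Of all genes, 7.56% and 9.33% were called higher, and 20.7% and 23.6% of the abundant genes. Its member Prdx5, a mitochondrial peroxiredoxin, was higher by 2.06 ± 0.18, adjusted p = 3e-07 in WT and 1.76 ± 0.18, adjusted p = 8.9e-07 in Fgg390-396A mice, given as log2 fold change ± SE. Gpd2, the glycerol 3-phosphate dehydrogenase that feeds electrons to ubiquinone, was higher by 2.01 ± 0.28, adjusted p = 4.1e-05 and 3.21 ± 0.29, adjusted p = 3.1e-07, and Hif1a, the hypoxia-responsive factor, by 1.90 ± 0.18, adjusted p = 5.8e-07 and 2.09 ± 0.18, adjusted p = 1.6e-07. Cox17, the copper chaperone of complex IV, was higher by 1.57 ± 0.23, adjusted p = 6.7e-05 and 1.57 ± 0.23, adjusted p = 5.5e-05. Suclg2, a succinyl-CoA ligase subunit, was lower (-1.94 ± 0.23, adjusted p = 8.7e-06 and -1.12 ± 0.23, adjusted p = 0.0014), as was the ADP and ATP exchanger Slc25a4 (-1.01 ± 0.23, adjusted p = 0.0043 and -1.15 ± 0.23, adjusted p = 0.0012).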
